A study of Mus musculus with 4 samples.

Results

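Chemokines and their receptors were read on 4 oligonucleotide arrays of mouse RNA, 1 from each of 4 groups. The members are all genes whose symbol is Ccl, Cxcl, Ccr or Cxcr followed by a number, plus Cx3cl1 and Xcr1, on probe sets that the array annotation assigns to a single symbol. This gave 48 genes of the 18193 genes named on the array, read by 75 of its 45037 probe sets that are not controls. Another 4 probe sets name a member only among several symbols and were left out. The 48 members are 18 CC ligands, 13 CXC ligands, 1 CX3C ligand, 10 CC receptors, 5 CXC receptors and 1 XC receptor.

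The study asked what loss of manganese superoxide dismutase (MnSOD, gene Sod2), the mitochondrial enzyme that removes superoxide, does to heart and skeletal muscle. In the d/d mice the floxed MnSOD gene was deleted by an MCK-Cre transgene, which is driven by the muscle creatine kinase promoter and so acts in heart and skeletal muscle, not in every cell type of these tissues. The f/f mice carried the floxed gene without that deletion and were the controls. Heart and muscle of each genotype made up the 4 groups. Age, sex, strain, the number of animals and the muscle taken are not given in the sources used here, nor is any tie between the heart and muscle samples.

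Chemokines are small secreted or membrane-bound proteins that guide leukocytes by binding receptors of the G-protein-coupled class. CC ligands such as Ccl2 draw monocytes, many CXC ligands draw neutrophils or lymphocytes, and several ligands share 1 receptor. Some, such as Cxcl12, are made constantly by stromal cells. Others are induced in injured or inflamed tissue by cytokines that act through NF-kappaB or interferon signalling. Resident macrophages, endothelial cells, fibroblasts and the muscle cells themselves can all be sources in heart and muscle. In these whole-tissue RNA samples, fewer cells of a type and less RNA per cell cannot be told apart.

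Each group holds 1 array, so the single-array differences have no replicate error and no p-value, and a fold of 2 serves as a limit of size and not as a test. Array intensities were scaled to a common trimmed mean, and the values below are these scaled signals, in the order d/d then f/f. Values under 7.51, the mean 40th percentile of the arrays, were treated as background and set to that floor before log2 was taken. A fold against an array at the floor is a lower bound and is written "at least". Of all probe sets, 58.0% to 61.1% lay above the floor on each array. The choice of the 40th percentile largely sets this share, so it is not a rate of detection. The Pearson correlation of log2 signals over probe sets was 0.973 between the heart arrays, 0.978 between the muscle arrays and 0.905 to 0.919 between tissues. Summed cardiac marker signal was 44479 and 44962 in heart against 2573 and 3007 in muscle, and summed skeletal muscle marker signal was 8806 and 5863 in heart against 96086 and 91461 in muscle, as labelled. The 4 Sod2 probe sets differed by -0.21 to -1.22 (log2, d/d minus f/f) in heart and by -0.44 to 0.06 in muscle, and the deleted part of the gene was not matched to them.

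Chemokine transcripts lay close to background. On the probe set with the highest mean signal for each gene, 13 of the 48 members were at the floor on all 4 arrays, 19 were above it on 1 to 3 arrays and 16 were above it on all 4. Only 13 members reached 30.1, which is 4 times the floor, on any array, so 35 of 48 lay near background throughout. Of the 75 probe sets, 22 were at the floor on all 4 arrays and 57 stayed under 4 times the floor. The share of members above the floor on 1 array or more was 72.9%, against 84.5% of all genes, and the share that reached 4 times the floor was 27.1%, against 53.4%.

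These counts depend on where the floor is set: 47 of 48 members were above it on some array with the floor at the 20th percentile, all but Ccr7, and 22 with it at the 60th. With the floor used here, the members at the floor on all 4 arrays were the ligands Ccl3, Ccl20, Ccl22, Cxcl2, Cxcl3 and Cxcl5 and the receptors Ccr1l1, Ccr3, Ccr4, Ccr7, Ccr8, Cxcr2 and Xcr1. Cxcl2, Cxcl3 and Cxcl5 are neutrophil-drawing ligands of Cxcr2, so this receptor and several of its ligands were under that floor in both tissues. Ccr7 guides dendritic cells and T cells to lymph nodes, Ccr3 is the eotaxin receptor of eosinophils, and Ccr4 is the receptor for Ccl17 and Ccl22. None of the 10 CC receptors reached 4 times the floor, whereas 6 of the 18 CC ligands, 5 of the 13 CXC ligands, Cx3cl1 and the receptor Cxcr4 did.

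**Figure D1:**
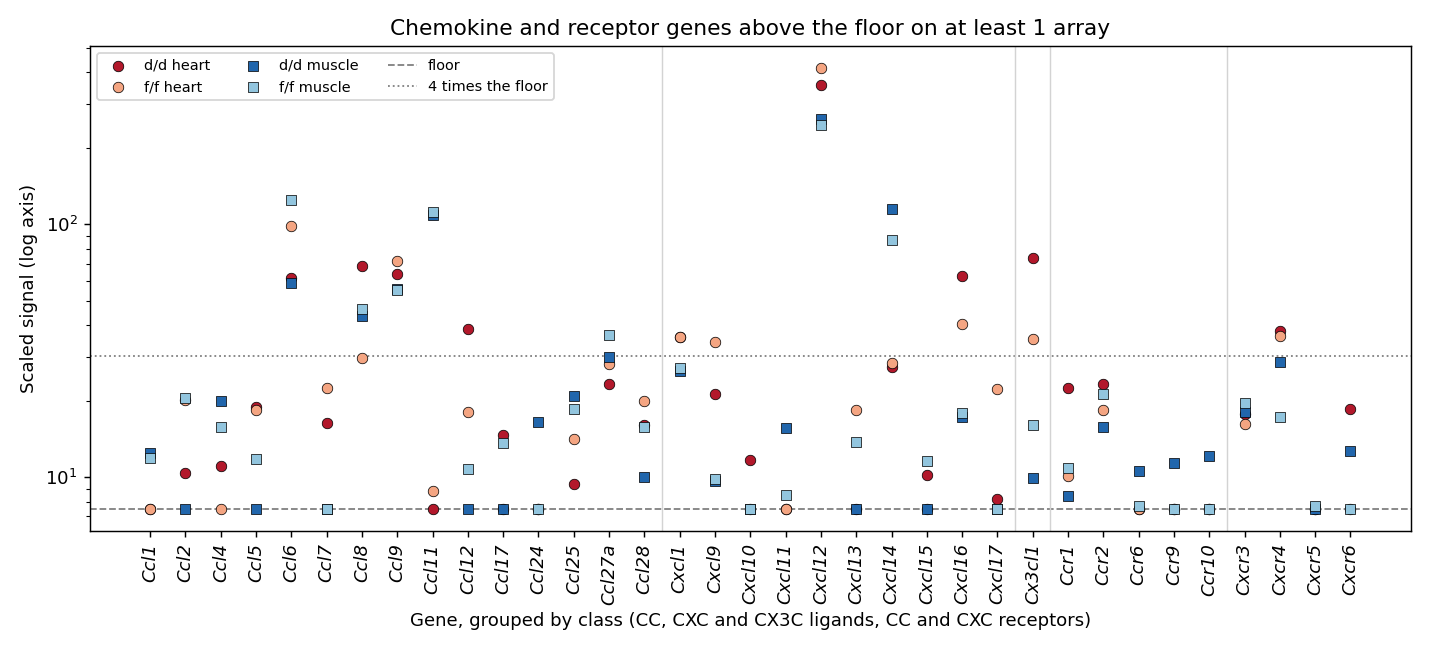
Scaled signal (log axis) of the members that were above the floor on at least 1 array, on each of the 4 arrays, with values under the floor drawn at the floor. Each point is 1 array, so no error bars can be drawn, and most points lie between the floor of 7.51 and 4 times the floor, 30.1.

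In heart, 5 members read at least 2-fold higher in d/d than in f/f, and these were the ligands Ccl8, Ccl12 and Cx3cl1 and the receptors Ccr1 and Cxcr6. The members at least 2-fold lower were Cxcl13 and Cxcl17. The 5 members are 17.9% of the 28 measured (above the floor on at least 1 heart array), and over all 13836 genes measured the share at least 2-fold higher was 3.94%. The 2 lower members are 7.14%, against 4.22% of all genes. Equal numbers of members, 14 and 14, lay above and below 0, and the median log2 difference was 0.01 (quartiles -0.35 and 0.64) against -0.05 over all genes. Some members stood well above 0, with the middle of the group near 0. At 4 times the floor or more on a heart array were 10 members, of which 3 were at least 2-fold higher and 0 were lower. Among all genes of that brightness, 3.97% were higher and 3.12% lower.

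For the 4 members that passed 2-fold upward in d/d heart with both heart arrays above the floor, the sequence around the start of transcription is shown, 250 bases before to 50 after the start, 5′ to 3′ along the gene's own strand, from RefSeq on GRCm38.p6. Capitals mark matches to the motifs searched. Ccl12 lies at chr11:82101595-82101894 on the plus strand, Ccl8 at chr11:82114935-82115234 on the plus strand, Cx3cl1 at chr8:94771930-94772229 on the plus strand and Ccr1 at chr9:123968643-123968942 on the minus strand.
Ccl12: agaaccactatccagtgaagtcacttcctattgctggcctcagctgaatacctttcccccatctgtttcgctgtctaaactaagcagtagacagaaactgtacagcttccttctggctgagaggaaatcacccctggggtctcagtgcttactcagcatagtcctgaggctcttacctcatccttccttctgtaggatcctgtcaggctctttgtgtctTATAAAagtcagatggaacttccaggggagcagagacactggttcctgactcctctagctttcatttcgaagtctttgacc
Ccl8: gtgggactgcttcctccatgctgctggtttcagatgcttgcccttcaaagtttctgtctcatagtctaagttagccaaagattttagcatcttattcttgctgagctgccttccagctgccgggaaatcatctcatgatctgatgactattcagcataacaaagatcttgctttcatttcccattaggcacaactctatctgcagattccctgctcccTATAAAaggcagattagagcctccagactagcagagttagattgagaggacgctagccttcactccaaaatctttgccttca
Cx3cl1: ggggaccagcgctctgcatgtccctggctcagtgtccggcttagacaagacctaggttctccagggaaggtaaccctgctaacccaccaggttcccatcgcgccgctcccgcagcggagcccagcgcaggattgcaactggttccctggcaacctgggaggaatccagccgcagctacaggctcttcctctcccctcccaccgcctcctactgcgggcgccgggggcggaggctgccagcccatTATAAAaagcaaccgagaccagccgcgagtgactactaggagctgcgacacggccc
Ccr1: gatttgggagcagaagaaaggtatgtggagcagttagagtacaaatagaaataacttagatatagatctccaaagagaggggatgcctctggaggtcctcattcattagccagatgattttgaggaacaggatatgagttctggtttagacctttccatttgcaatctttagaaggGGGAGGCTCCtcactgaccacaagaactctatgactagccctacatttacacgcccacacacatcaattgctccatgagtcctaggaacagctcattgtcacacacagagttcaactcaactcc

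The motifs searched on both strands were the AP-1 motif TGANTCA, the interferon-gamma site (GAS) TTCNNNGAA, the interferon response core GAAANNGAA, the TATA box TATAAA and the kappaB consensus. Ccl12 and Ccl8 had a TATA box as their only match, its first base at -31 and -32 from the start, and Cx3cl1 had 1 at -6. Ccr1 had a kappaB consensus at -74 as its only match. Among 39 windows for the 35 members found in the promoter table, the TATA box was in 12, the kappaB consensus in 11, the AP-1 motif in 8, the interferon response core in 6 and the GAS motif in 4. The shares of all 32851 windows of this length were 13.6%, 8.46%, 7.81%, 8.56% and 8.30%. The window of Cxcr6, the other higher member, held none of these letters. A kappaB consensus was also found in windows of other members, among them Cxcl1, Cxcl2 and Cxcl3, of which Cxcl2 and Cxcl3 were at the floor on all 4 arrays. A match is a description of letters and not evidence that a factor binds there.

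Ccl8 and Ccl12 belong to the monocyte chemoattractant group and are direct neighbours among the members on chromosome 11, in the order Ccl2, Ccl7, Ccl11, Ccl12, Ccl8, Ccl1. Ccl8 read 68.3 in d/d against 29.8 in f/f heart, a 2.30-fold difference, and 43.5 and 46.4 in muscle. The muscle arrays lay between the heart arrays, above f/f heart and below d/d heart. Ccl12, a mouse ligand of the monocyte receptor Ccr2, read 38.6 and 18.2 in heart, a 2.12-fold difference, and 7.45 and 10.8 in muscle, where d/d was at the floor. Both kept a difference of at least 2-fold under all 7 other ways of scaling, flooring or summarizing the arrays, at log2 differences of 1.14 to 1.25 for Ccl8 and 1.03 to 1.12 for Ccl12. Each is read by 1 probe set that bears no mark of shared sequence, so the probe set alternatives could not change its value. For Ccl8 the floor alternatives could not either, since both heart arrays lay above each floor.

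The other genes of that cluster did not share the direction. Ccl2, the main monocyte attractant acting on Ccr2, read 10.4 in d/d against 20.2 in f/f heart, a difference of -0.96 on the log2 scale, just inside the 2-fold limit. Ccl7, another Ccr2 ligand, read 16.4 and 22.6 in heart, and both muscle arrays were at the floor. Ccl11, the eosinophil attractant eotaxin, was at the floor in d/d heart and at 8.84 in f/f heart. Ccl1, a ligand of Ccr8, was at the floor on both heart arrays.

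Cx3cl1, or fractalkine, is made as a membrane-bound ligand and is known from endothelial cells and neurons. Its brightest probe set read 73.8 in d/d against 35.3 in f/f heart, a 2.09-fold difference. A second probe set was at the floor in f/f heart and at 15.5 in d/d heart, at least 2.06-fold higher, so both probe sets that measured the gene pointed the same way. The remaining probe sets of Cx3cl1, at the floor on all arrays, measured nothing. The receptor of fractalkine, Cx3cr1, carried by monocytes and tissue macrophages, is not a member by the naming rule. On its brighter probe set it read 73.3 in d/d against 25.2 in f/f heart (log2 difference 1.54), but its other probe set read 13.8 and 15.8 (-0.20). The probe sets of Cx3cr1 thus disagreed on the direction.

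The receptor Ccr1, found on monocytes and neutrophils, binds Ccl3, Ccl5, Ccl6 and Ccl9. It read 22.4 in d/d against 10.1 in f/f heart, a 2.22-fold difference, and its other probe set was at the floor on both heart arrays. Of its ligands, those named here read the other way or did not differ by 2-fold. Ccl6, a mouse ligand made by myeloid cells, read 61.3 and 98.2 in heart (log2 difference -0.68). Ccl9, made by macrophages among others, read 63.8 and 71.8 (-0.17), and Ccl5, known from T cells, read 18.9 and 18.5 (0.03). Ccl3 was at the floor.

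Cxcr6, a receptor of activated T cells and natural killer T cells, read 18.6 in d/d heart and was at the floor in f/f heart, at least 2.48-fold higher. Its only ligand, the membrane-bound Cxcl16, read 62.6 in d/d against 40.2 in f/f heart, a difference of 0.64 on the log2 scale. A second probe set of Cxcl16 read 49.2 and 22.3, a 2.21-fold difference, so the ligand passed 2-fold on 1 of the 2 probe sets. The probe set that read Cxcr6 bears a suffix that marks possible shared sequence, and the other probe set of the gene was at the floor on every array.

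Ccr2, the receptor of Ccl2, Ccl7 and Ccl12 on inflammatory monocytes, read 23.3 in d/d against 18.4 in f/f heart on its brightest probe set (log2 difference 0.34). The other measured probe sets read 20.8 against the floor, at least 2.76-fold, and 17.9 against 9.86, 1.82-fold. All 3 were higher in d/d heart, by unequal amounts.

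The members lower in d/d heart were dim. Cxcl13, the B cell attractant that acts on Cxcr5, was at the floor in d/d heart and at 18.4 in f/f heart, at least 2.46-fold lower. Its other probe set read 14.3 and 15.5, a log2 difference of -0.11, and did not share that size. Cxcl17, a ligand known from mucosal tissue, read 8.22 and 22.4, a log2 difference of -1.44, with d/d just above the floor. With the floor at the 60th percentile neither was at least 2-fold lower, and with the 2% scaling replaced by scaling on the median Cxcl13 was not.

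Cxcl12, the stromal ligand of Cxcr4 that retains stem and immune cells, read 356 in d/d against 416 in f/f heart on its brightest probe set (log2 difference -0.22). Cxcr4 read 37.9 and 36.1 (0.07). Cxcl14, a ligand known from epithelium and muscle, read 27.3 and 28.2 (-0.05) on its brightest probe set and 22.6 and 8.50 on the other, a 2.66-fold difference, so the heart result for Cxcl14 depended on the probe set. Ccl27a, best known as a skin chemokine, read 23.4 and 28.1 (-0.26), and Cxcl1, which draws neutrophils, read 35.8 and 36.0 (-0.01). Cxcl9, which is induced by interferon-gamma and acts on Cxcr3, read 21.4 and 34.3 (-0.68).

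**Figure D2:**
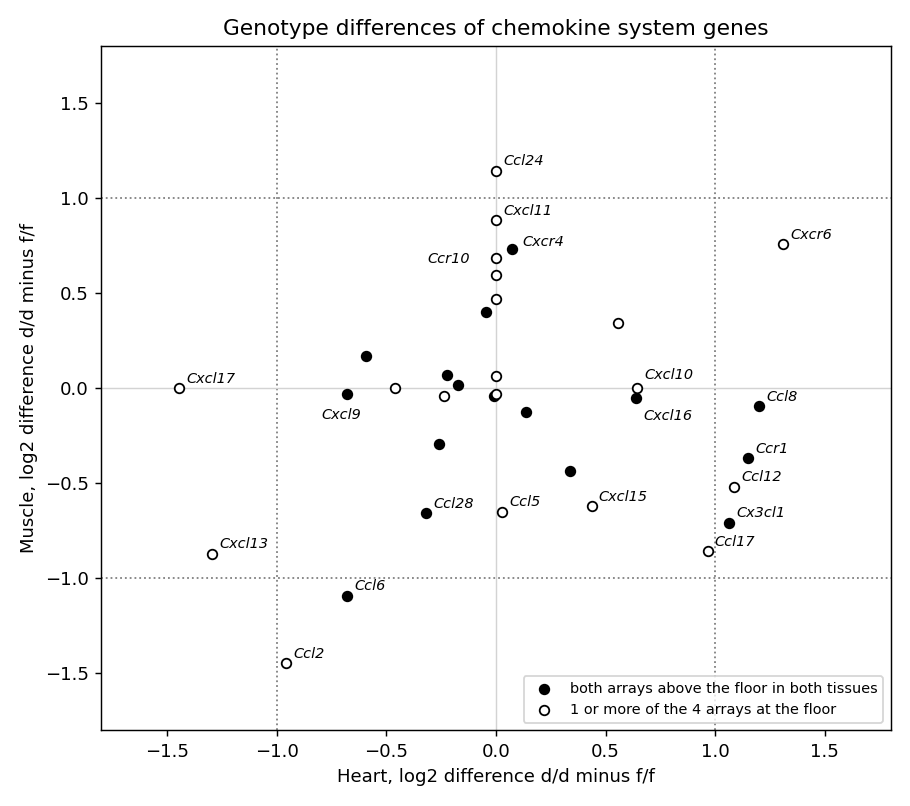
Log2 difference d/d minus f/f of each member above the floor on at least 1 array, heart on the horizontal axis and muscle on the vertical axis, with dotted lines at 2-fold; a difference with both arrays of a tissue at the floor is drawn at 0. Ccl8, Ccl12, Ccr1, Cx3cl1 and Cxcr6 lie past the right-hand line, and Ccl24 alone lies past the upper line.

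In muscle, few members passed 2-fold on the probe set that represents each gene, and not those of the heart. Ccl24 passed the limit upward in d/d, and Ccl2 and Ccl6 passed it downward. Of 32 members measured in muscle, 1 (3.13%) was higher and 2 (6.25%) were lower, against 2.64% higher and 3.25% lower among 14256 genes. The median of the members was -0.04, with 13 above 0 and 19 below, and the median of all genes was -0.003.

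Ccl6 read 58.5 in d/d against 125 in f/f muscle, a 2.13-fold difference, and was the only member past 2-fold in muscle with both arrays above the floor. Its other probe set read lower in d/d too, with less than a 2-fold difference. Ccl2 was at the floor in d/d muscle and at 20.5 in f/f muscle, at least 2.73-fold lower. Ccl6 and Ccl2 thus read lower in d/d on the arrays of both tissues. Ccl24, or eotaxin-2, which acts on Ccr3 of eosinophils, read 16.6 in d/d muscle and was at the floor in f/f muscle, at least 2.21-fold higher, and both heart arrays were at the floor.

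Members that stood out in heart did not do so in muscle on the probe set that represents each gene. Ccl8 had a log2 difference of -0.09 in muscle and Ccr1 of -0.37. Cx3cl1 read 9.89 in d/d against 16.2 in f/f muscle (-0.71), opposite in sign to the heart on both measured probe sets. Its second probe set was at the floor in d/d muscle and at 16.0 in f/f, at least 2.13-fold lower. Ccl12 had -0.52 with d/d at the floor. Cxcr6 read 12.7 in d/d muscle against the floor in f/f, at least 1.69-fold higher, and was higher in d/d in both tissues. The differences between tissues in these effects were not tested, since each rests on 1 array a group.

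Among the other bright members in muscle, Ccl11 read 109 and 112 (log2 difference -0.04), Ccl9 read 55.7 and 55.1 (0.01), and Cxcl12 read 260 and 248 (0.07). Cxcl14 read 115 and 86.7 (0.40), Ccl27a read 29.9 and 36.7 (-0.29) and Cxcl1 read 26.2 and 27.0 (-0.04). That Cxcl1 probe set bears the suffix that marks possible shared sequence. Another Cxcl1 probe set, without the suffix, was at the floor in d/d muscle and at 17.2 in f/f, at least 2.29-fold lower. The remaining Cxcl1 probe set had -0.53, so the muscle result for Cxcl1 depended on the probe set. Cxcl16 read 17.3 and 18.0 (-0.05), Cxcl9 read 9.64 and 9.85 (-0.03), and Cxcr4 read 28.7 and 17.3 (0.73). Cxcl13 was at the floor in d/d and at 13.7 in f/f, at least 1.83-fold lower, which leaves its place against the 2-fold limit unknown, and Cxcl17 was at the floor on both muscle arrays. Of these, the members with both muscle arrays above the floor differed by less than 2-fold on the probe set that represents each gene.

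The remaining 16 members above the floor on some array stayed under 4 times the floor, and none passed 2-fold between the genotypes on its representative probe set. They were Ccl1, Ccl4, Ccl5, Ccl7, Ccl17, Ccl25, Ccl28, Cxcl10, Cxcl11, Cxcl15, Ccr2, Ccr6, Ccr9, Ccr10, Cxcr3 and Cxcr5. For Ccl4, Ccl5, Ccl17, Cxcl10, Cxcl15, Ccr9, Ccr10 and Cxcr5 the difference in a tissue was a lower bound, so 2-fold could not be placed above or below it, and with the floor at the 20th percentile Ccl7, Ccl17, Cxcl10, Cxcl15 and Ccr10 passed 2-fold in a tissue. Ccl17, a Ccr4 ligand, came nearest to the limit, at 14.7 in d/d heart against the floor in f/f, at least 1.95-fold, and it passed 2-fold there with no scaling of the arrays. Cxcl10, induced by interferons and acting on Cxcr3, read 11.8 in d/d heart against the floor, at least 1.56-fold. Cxcl11, another Cxcr3 ligand, read 15.6 and 8.48 in muscle (0.88), and Cxcr3 itself read between 16.2 and 19.7 on all 4 arrays.

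Several genes had more than 1 probe set, and these gave the nearest thing to a repeat of a measurement within an array. In heart, 11 members had at least 2 measured probe sets, which lay on the same side of 0 in 10 members and on opposite sides in Cxcl14. In muscle, 12 members did, and they lay on the same side in 9 and on opposite sides in Ccl9, Ccl28 and Cxcl12. Where probe sets were above the floor, the SD between the log2 differences of 1 gene's probe sets was 0.41 over 8 members in heart and 0.40 over 6 members in muscle, near the 0.39 and 0.40 of all genes. This spread is between probe sets on the same RNA and does not include the spread between animals. Counted by probe set, 9 of 44 measured were at least 2-fold higher and 2 lower in d/d heart, and 1 of 48 was higher and 4 lower in d/d muscle. Over all measured probe sets with 1 symbol, the shares were 3.80% higher and 4.51% lower in heart, and 3.04% higher and 3.28% lower in muscle.

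**Figure D3:**
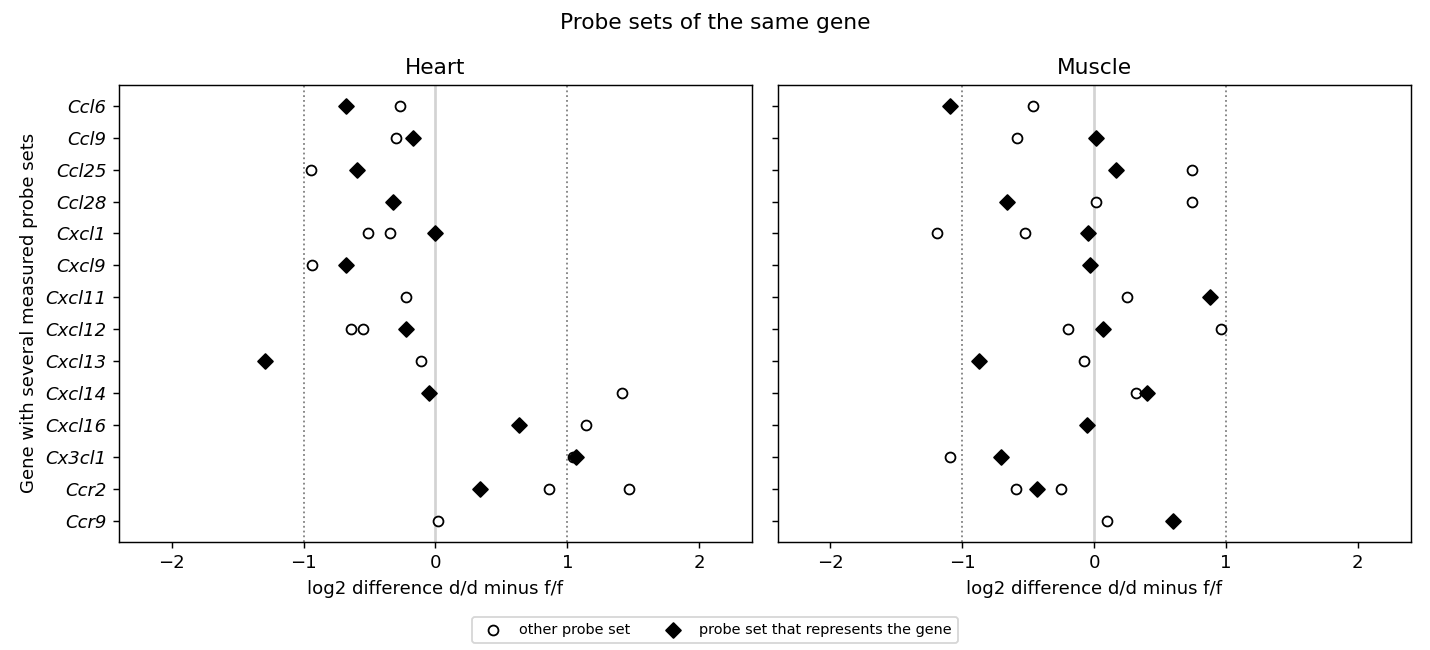
Log2 difference d/d minus f/f of the measured probe sets of each member with several, in heart (left) and muscle (right); diamonds mark the probe set that represents the gene, circles the others, and dotted lines 2-fold. The probe sets of Cx3cl1 and Ccr2 lie right of 0 in heart, while those of Cxcl14 lie on both sides.

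More members passed 2-fold between heart and muscle than between the genotypes, and the same held for the shares of all genes. In f/f mice, 6 of 30 members measured were at least 2-fold higher in heart (12.1% of all genes) and 3 were higher in muscle (8.30% of all genes). In d/d mice, 7 of 33 were higher in heart (15.1%) and 5 in muscle (10.5%). The median heart minus muscle difference of the members was -0.03 in f/f and 0.44 in d/d, against 0.08 and 0.01 over all genes. In both genotypes, Ccl7, Cx3cl1, Cxcl9 and Cxcl16 were at least 2-fold higher in heart, and Ccl11 and Cxcl14 at least 2-fold higher in muscle. These are 4 and 2 of 35 members, and the shares over 15381 genes were 6.61% and 4.76%.

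Ccl11 had the widest tissue difference of the members. It read 109 and 112 on the muscle arrays and no more than 8.84 on the heart arrays, 12.7-fold in f/f and at least 14.5-fold in d/d. Its receptor Ccr3 was at the floor on all 4 arrays, and the eosinophil granule genes Epx and Prg2 read at most 8.42 on any array. Cxcl14 read 115 and 86.7 in muscle and 27.3 and 28.2 in heart, 4.20-fold in d/d and 3.07-fold in f/f. Its second probe set read 81.6 and 65.3 in muscle and 22.6 and 8.50 in heart, in the same direction.

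On the heart side, Cx3cl1 differed 7.46-fold in d/d and 2.18-fold in f/f on its brightest probe set. On its second probe set f/f heart was at the floor and f/f muscle at 16.0, so the f/f direction was not shared between probe sets. Cxcl16 differed 3.61-fold in d/d and 2.24-fold in f/f, Cxcl9 differed 2.22-fold and 3.48-fold, and Ccl7 at least 2.19-fold and at least 3.01-fold. In d/d, Ccl12 was at least 5.14-fold and Ccl5 at least 2.52-fold higher in heart, with d/d muscle at the floor, and Ccr1 was 2.66-fold higher. In f/f these 3 did not pass 2-fold, and the difference between the genotypes was not tested. For Cxcl12 the brightest probe set was higher in heart in both genotypes, 356 and 416 against 260 and 248, and so was the dimmest, 19.8 and 29.0 against 17.0 and 8.71. The other probe set was higher in muscle, 282 and 324 against 113 and 176, so 2 of 3 probe sets read higher in heart and the tissue direction of Cxcl12 was not settled.

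**Figure D4:**
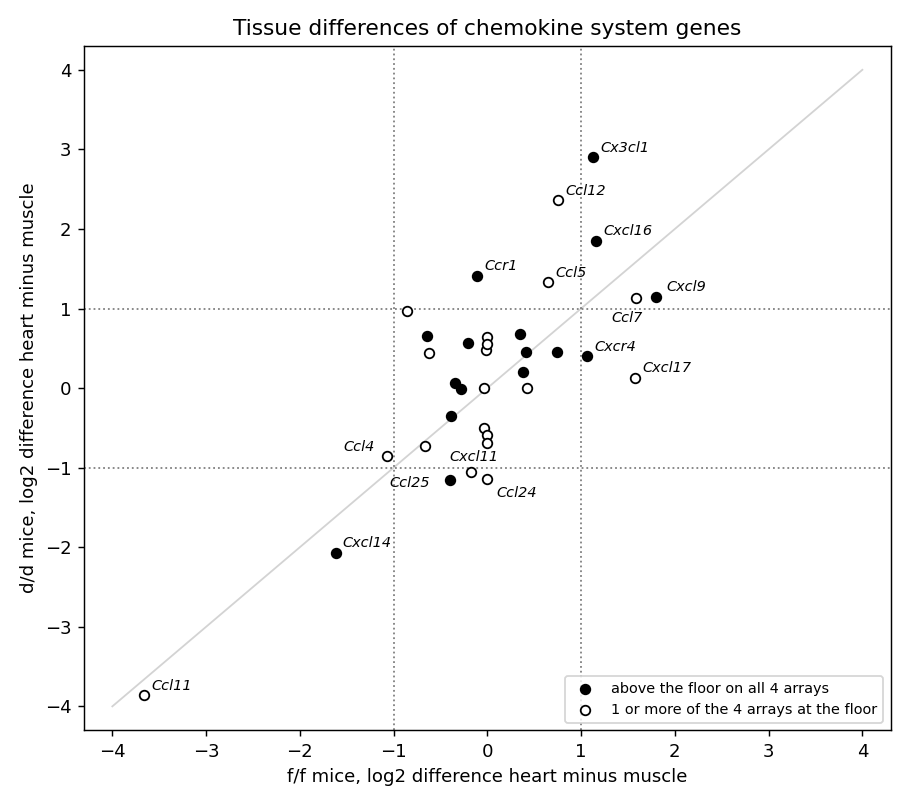
Log2 difference heart minus muscle of each member above the floor on at least 1 array, f/f mice on the horizontal axis and d/d mice on the vertical axis, with dotted lines at 2-fold and the line of equal differences in grey. Ccl11 and Cxcl14 lie at the lower left in both genotypes, and Cx3cl1, Cxcl16, Cxcl9 and Ccl7 at the upper right.

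A linear model with tissue and genotype was fitted to the 13497 genes that 2 or more arrays placed above the floor, 30 of them members, with limma's moderated test and Benjamini-Hochberg adjustment. Its 4 arrays leave 1 residual degree of freedom, and it takes the tissues as repeats of the genotype comparison and the genotypes as repeats of the tissue comparison. For d/d against f/f limma called 0 of 13497 genes (0%) at an adjusted p under 0.05, with 570 genes at an unadjusted p under 0.05. With so few arrays the absence of a call does not show that genes did not differ. No member was called by limma, and 4 (13.3%) had an unadjusted p under 0.05, beside 4.22% of all genes tested. These 4 were Ccl2 (log2 difference -1.20, SE 0.28), Ccl6 (-0.89), Cxcl13 (-1.08) and Cxcr6 (1.03), with unadjusted p of 0.00599, 0.0197, 0.00872 and 0.0124. Each had the same sign in heart and muscle, which the fit favours because it takes the tissues as repeats. The adjusted p of each was 0.9998 in limma. Ccl2, Cxcl13 and Cxcr6 were at the floor on some arrays, so their log2 differences rest partly on floored values. With the median of a gene's probe sets 1 of 29 members (3.45%) had an unadjusted limma p under 0.05, beside 4.49% of all genes. With the floor at the 20th percentile 2 of 43 (4.65%) did, beside 5.34%. Under the other alternatives the share of members stayed above that of all genes, at 7.14% to 13.3%. With limma's trend and robust settings 3 genes were called, 0 of them members.

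For heart against muscle limma called 1840 genes, 13.6%, and 6 of the 30 members, with 11 members (36.7%) at an unadjusted p under 0.05, beside 4338 (32.1%) of all genes tested. Ccl11 (log2 difference heart minus muscle -3.76, SE 0.26) had a limma adjusted p of 0.00124, and Cxcl14 (-1.84, SE 0.28) of 0.0150. Cx3cl1 (2.01, SE 0.46) had 0.0433, Cxcl16 (1.51, SE 0.30) 0.0313, Cxcl9 (1.47, SE 0.29) 0.0318 and Ccl7 (1.36, SE 0.28) 0.0336, all from limma. These calls moved with the settings. With the floor at the 20th percentile limma called 0 genes and 0 members, with 3491 genes at an unadjusted p under 0.05, and with quantile normalization it called 2 members and 9.17% of all genes. With no scaling it called 11 members and 24.9% of all genes. Over 8 alternatives the limma adjusted p of Ccl11 ran from 8.99e-06 to 0.131 and that of Cxcl14 from 0.00066 to 0.148, both under 0.05 in 7. That of Cxcl16 ran from 0.0112 to 0.176 (6 of 8), that of Cxcl9 from 0.0162 to 0.188 (4 of 8) and that of Cx3cl1 from 0.0112 to 0.984 (3 of 8). That of Ccl7 ran from 0.0198 to 0.152 (5 of 7).

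Other genes of the chemokine system, which the naming rule does not cover, were taken from a list of 18 that holds further ligands, the atypical scavenging receptors and enzymes that trim chemokines. Of 16 measured in heart on the probe set that represents each gene, 1 (Cx3cr1) passed 2-fold upward in d/d and 2 passed it downward. The median of the 16 was 0.03. For this list and those below, the shares of all genes measured were 3.94% higher and 4.22% lower in heart. In muscle they were 2.64% higher and 3.25% lower. Of all genes measured, 6275 of 13836 lay above 0 in heart and 7078 of 14256 in muscle. The scavenging receptor Ackr4 read 15.4 and 23.5 in heart on that probe set (-0.61). Its other probe sets read 32.3 against 8.16 and 19.7 against 9.44, 3.96-fold and 2.09-fold higher in d/d. The direction of Ackr4 in heart thus depended on the probe set. Ccrl2, which presents the attractant chemerin, read 35.5 and 80.2 in heart (log2 difference -1.17) and 69.2 and 51.0 in muscle (0.44). Ppbp, a platelet CXC ligand also called Cxcl7, read 41.3 and 88.7 in heart (-1.10), beside summed platelet markers, Ppbp left out, of 293 and 392, and a part of platelets in this result was not tested. Of 16 measured in muscle, 0 were higher and 1, the peptidase Dpp4 that trims Cxcl12, was lower, at 9.77 and 24.7.

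Of the receptor signalling list, 32 genes were measured in heart, with 1 past 2-fold in each direction and a median of 0.13. Rgs2, which dampens G-protein signals, read 96.4 and 295 (log2 difference -1.61), and Coro1a, an actin-binding protein of leukocytes, read 101 and 49.2 (1.04). Of 30 measured in muscle, 1 was higher, the leukocyte exchange factor Vav1, at 17.3 against the floor, and 0 were lower. Rgs2 and Coro1a were the only members of that list past 2-fold in heart.

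Of 30 NF-kappaB pathway genes and inducing cytokines measured in heart, 23 lay above 0 and 7 below, with a median of 0.29 against -0.05 over all genes. Only Il17ra, a receptor subunit for interleukin-17, passed 2-fold, at least 4.80-fold higher at 36.1 against the floor. In muscle the median of 29 was -0.07, and the subunits Nfkb2 and Relb and the interleukin-1 receptor Il1r1 were at the floor in d/d and at 22.9, 23.5 and 15.3 in f/f, while the interleukin-6 receptor Il6ra was at 19.5 in d/d against the floor. Of 16 interferon-gamma pathway genes measured in each tissue, none passed 2-fold in either, and the medians were -0.23 and -0.17. Ifng itself was at the floor on all 4 arrays.

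Some genes of leukocyte adhesion and of macrophages read higher in d/d heart, as the 5 members above did. Of the adhesion list, 20 genes were measured in heart, of which 3 passed 2-fold upward and 0 downward, and the median was 0.17. Over all genes measured in heart, 3.94% passed upward and 4.22% downward, and the median was -0.05. Selp, or P-selectin, read 36.7 and 8.93, a 4.11-fold difference, its ligand Selplg read 40.1 and 16.9, 2.37-fold, and the integrin subunit Itgb2 was 2.13-fold higher. In muscle 0 of 20 passed 2-fold, against 2.64% higher and 3.25% lower over all genes. Of 18 macrophage markers, 16 lay above 0 in heart (median 0.54) and 2 in muscle (median -0.54). Over all genes, 6275 of 13836 lay above 0 in heart and 7078 of 14256 in muscle. The summed signal of the macrophage markers was 3939 in d/d heart, 2793 in f/f heart, 1079 in d/d against 1612 in f/f muscle. Mpeg1, a pore-forming protein of macrophages, read 203 and 48.3 in heart, 4.20-fold, Ctss, a lysosomal protease, 2.97-fold, Fcgr1, an antibody receptor, 2.62-fold and Cd14, a lipopolysaccharide receptor, 2.07-fold. Cd163, a marker of resident macrophages, was lower in d/d in both tissues, by -1.30 in heart and -1.53 in muscle. Mrc1, Lyve1 and Mertk of the same list did not share this. Their log2 differences were 0.20, 0.10 and 0.06 in heart and -0.31, -0.22 and 0.49 in muscle. The macrophage list thus read higher in d/d heart and lower in d/d muscle, as Ccl12 and Cx3cl1 did, and its part in the differences of the members was not tested.

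Fibroblast markers had the same signs, with 11 of 12 above 0 in heart (median 0.59) and 0 of 12 in muscle (median -0.62), and summed signals of 11672, 6793, 4738 and 7459 in the order heart d/d, heart f/f, muscle d/d, muscle f/f. Endothelial markers summed to 2918 and 2326 in heart and 1429 and 1413 in muscle. Neutrophil markers summed to 117 and 113 in heart and 110 and 115 in muscle. T cell markers summed to 93.1 and 104 in heart and 104 and 68.6 in muscle, with Cd3d, Cd3e and Cd3g at the floor on all 4 arrays. Zap70, a kinase of T cell receptor signalling, made up much of these sums, which without it were 23.8 and 54.1 in heart and 31.0 and 33.6 in muscle. B cell markers summed to 119, 112, 85.0 and 154, NK cell markers to 26.9, 22.7, 41.1 and 51.8, dendritic cell markers to 101, 89.6, 113 and 77.0, and mast cell and eosinophil markers to 65.7, 95.7, 161 and 206, in the same order. Ighm, an immunoglobulin chain, carried the muscle difference of the B cell sum, which without it was 39.8 and 40.6. Their parts in the results of the members were not tested.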

How the data were processed

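For each of 4 mouse arrays the deposited file lists a linear intensity for every probe set, per the file headers. The authors' route from scan to intensity, and their scaling target, are not given in the sources used here. Before scaling, the deposited intensity values ran from 0 to 9375, with 2% trimmed means of 48.2 to 69.2. Each array was scaled to a common 2% trimmed mean, signals under the mean 40th percentile (7.51) were raised to it, and log2 was taken. Where a gene had several probe sets, the 1 with the highest mean log2 signal stood for it. Symbols came from the platform annotation, and all 48 members had the same symbol in RefSeq. Values on all arrays were given for members past 2-fold between genotypes in a tissue, or at 4 times the floor on an array. The fit used limma 3.58.1 in R 4.3.3. Tested on simulated data, it missed the smallest changes tried, and more of its calls were false than its threshold allows, so its calls and their absence are weak evidence. Other work used Python 3.11.15 with pandas 2.3.3. The members and lists were chosen with earlier results of these data known. The labels do not say how samples relate to animals, and each group holds 1 array. Any p-value therefore rests on how unequal the genotype difference was between the tissues on these 4 arrays. The limma fit pools that spread over all genes, and it does not measure a spread between animals. The number of arrays limits the precision. Alternatives changed the scaling, floor, fold limit, probe set rule and limma settings.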

Additional observations from a re-analysis of the deposited data

Results flagged for a closer look

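Ccl12 and Cx3cl1 differed between genotypes in opposite directions in heart and muscle. Ccl12 had a log2 difference (d/d minus f/f) of 1.09 in heart and -0.52 in muscle, a bound on its size since the d/d array was at the floor. Cx3cl1 had 1.06 in heart and -0.71 in muscle. Each value rests on 1 array a group, so the difference between the tissues was not tested.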

How the results depend on the processing

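No replicate could be left out and no fit with a replicate block made, since each group holds 1 array. No analysis paired by animal was possible because the labels do not say how samples relate to animals. The limma fits instead took tissue or genotype as the block. Under the scaling, floor and probe set alternatives, the median of the members stayed between -0.07 and 0.06 in heart and between -0.13 and -0.02 in muscle. Members above the floor on an array (35 of 48) numbered 47 under a floor at the 20th percentile and 22 under 1 at the 60th. Each count below is set beside the share of all genes measured under the same setting. Members higher in d/d heart (5 of 28) numbered 9 of 43 (8.91%) at the 20th percentile, 3 of 18 (3.05%) at the 60th, 8 (11.2%) past 1.5-fold, 0 (1.08%) past 3-fold and 3 (3.19%) with the median of a gene's probe sets. Those lower in d/d heart (2 of 28) numbered 0 of 18 (2.37%) at the 60th percentile, 6 (13.3%) past 1.5-fold, 0 (0.81%) past 3-fold, 1 (3.64%) with the median of probe sets and 1 (3.96%) with scaling on the median. Those higher in d/d muscle (1 of 32) numbered 3 of 42 (9.85%) at the 20th percentile, 0 of 14 (0.55%) at the 60th, 6 (9.06%) past 1.5-fold, 0 (0.32%) past 3-fold and 0 of 30 (1.51%) with no scaling. Those lower in d/d muscle (2 of 32) numbered 9 of 42 (10.5%) at the 20th percentile, 1 of 14 (1.06%) at the 60th, 8 (10.8%) past 1.5-fold, 0 (0.48%) past 3-fold and 1 of 31 (2.42%) with the median of probe sets. The genes behind a count changed too. Among those higher in d/d heart, the median of probe sets lost Ccr1, Cx3cl1 and Cxcr6 and gained Ccr2. Leaving out probe sets of shared-sequence suffix kept 5, with Cxcr6 lost and Cxcl14 gained. Among those lower in d/d heart, no scaling kept 2, with Cxcl13 lost and Ccl2 gained. The limma tissue calls among members (6 of 30) numbered 0 of 43 (0%) at the 20th percentile, 11 of 28 (24.9%) with no scaling and 2 of 30 (9.17%) with quantile normalization. Ccr1 was at least 2-fold higher in d/d heart in 5 of 7 settings, Cx3cl1 in 6 and Cxcr6 in 4; Cxcl17 was lower in 6 and Cxcl13 in 2; in muscle Ccl6 and Ccl2 were lower in 6 each and Ccl24 higher in 5. With no scaling the heart minus muscle median of all genes was 0.47 in f/f and 0.45 in d/d, with 23.7% of genes higher in heart and 4.62% in muscle in f/f, and 26.9% and 5.40% in d/d. Scaling on the median brought these shares close together, at 10.3% higher in muscle in f/f with a slightly smaller share higher in heart, and at 12.8% higher in heart and 13.0% in muscle in d/d. With no scaling 1.51% of genes were higher and 3.35% lower in d/d muscle. Ccl11, Cxcl14 and Cxcl16 kept their tissue direction in both genotypes under all of these settings, while Cx3cl1 in f/f turned to -0.55 with the median of probe sets. For each of these changes the cause was not tested. Most members lie near background, which limits what signal differences can show.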
